A study of Mus musculus with 41 samples.

Results

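The Dppa genes (developmental pluripotency associated) are the 5 symbols Dppa1, Dppa2, Dppa3, Dppa4 and Dppa5a. They were taken by name from the 24028 gene symbols of each expression table, with earlier results of these data known. They were followed in 13 RNA-seq libraries of mouse androgenetic haploid embryonic stem cells (AG-haESCs), which carry a single, sperm-derived genome. Wild-type line 2i-14 was kept in 2i/L, a serum medium with LIF, the MEK inhibitor PD0325901 and the GSK3 inhibitor CHIR99021, and was read at passages 18, 39 and 50 (p18, p39, p50). Wild-type lines TSa2i-14 (p22, p47, p54) and TSa2i-C57 (p9, p58) were derived by the two-step TSa2i/L protocol, in which the Src inhibitor CGP77675 takes the place of PD0325901 (a2i), first with serum and then in the serum-free medium SF/a2i/L. Line 2i-O48 lacks the H19-DMR and the IG-DMR, and 2i-O48-TKO lacks the gene H19 as well. Both were read in 2i/L, and these lines and 2i-14 were also read after 5 passages in SF/a2i/L (switched cultures). The labels give strain C57BL/6 for every library, and the study names an actin-EGFP transgene in TSa2i-14. Haploid cells were enriched by sorting from lines derived on ICR mouse feeder fibroblasts, and cDNA was amplified from small numbers of cells. Libraries of 1 line are passages of that line rather than separate lines, so that the p-values below measure the spread between these cultures, and wild-type medium and line cannot be told apart, since a single wild-type line stands for 2i/L. For the same reason, DMR deletion and line cannot be told apart in 2i/L, and the 2 deleted lines share the name O48.

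As background, DPPA2 and DPPA4 are SAP-domain proteins that bind chromatin as a pair, keep developmental promoters poised and act upstream of Dux and other genes of the 2-cell embryo. DPPA3, also called STELLA or PGC7, protects methylated DNA in the zygote and displaces UHRF1, the cofactor of the maintenance DNA methyltransferase. DPPA5A is a KH-domain RNA-binding protein of pluripotent cells and the germ line, and little is known of DPPA1.

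Values are FPKM, fragment counts scaled to transcript length and to the size of the library, so that levels of different genes can be set side by side per length. Depth, estimated from the spacing of low FPKM values, was about 13000000 to 20000000 fragments per library, and 9258 to 10320 symbols reached 1 FPKM. All 8 embryonic stem cell markers examined, among them Pou5f1 and Sox2, were at 1 FPKM or above in all 13 libraries. Small RNA loci took 67.2% of the summed FPKM in switched 2i-14 and 23.2% in 2i-14 p18, against at most 1.06% elsewhere, and shares of the total are therefore given without these 1081 symbols. Of 15 fibroblast markers, TSa2i-14 p54 had a summed level of 145 FPKM, 2i-14 p39 of 62.6 and TSa2i-C57 p58 of 45.1, and the other libraries of 2.27 to 11.5, where the fibroblast gene Dcn lay between 0 and 3.55 FPKM.

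The members differed by orders of magnitude. Over the 13 libraries the median level was 22694 FPKM for Dppa5a, 259 FPKM for Dppa3, 78.9 FPKM for Dppa4, 18.8 FPKM for Dppa2 and 0 for Dppa1. Dppa4 exceeded Dppa2 in 13 of 13 libraries and Dppa3 exceeded Dppa4 in 12, the exception being 2i-14 p18. From lowest to highest library the level ranged 2.31-fold for Dppa5a, 2.71-fold for Dppa4, 5.70-fold for Dppa2 and 7.0-fold for Dppa3.

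**Figure D1:**
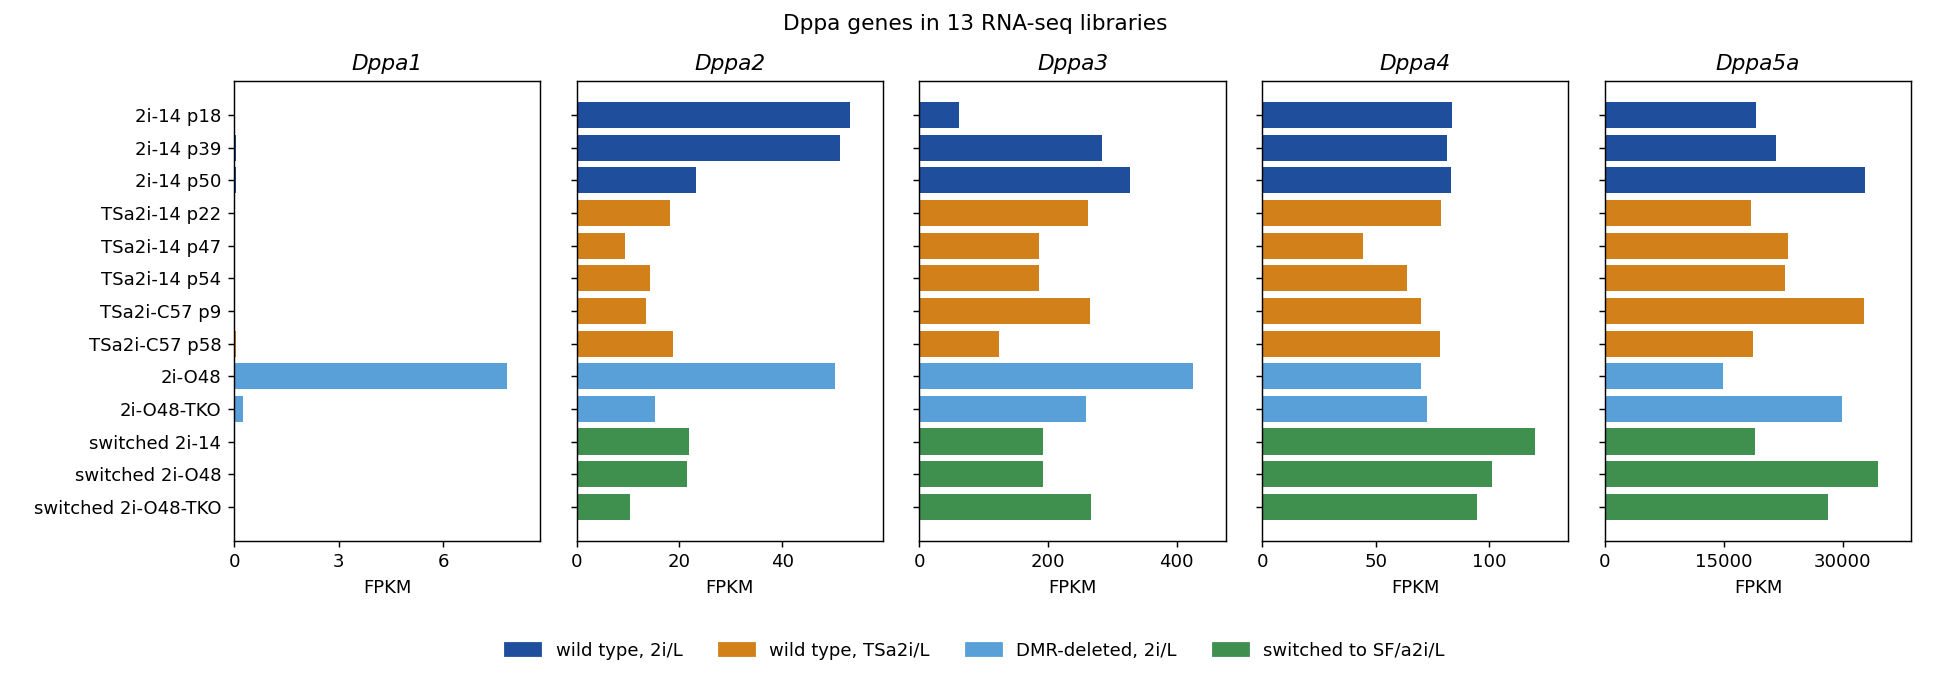
FPKM of each Dppa gene (1 panel per gene, linear axis from 0) in the 13 libraries, coloured by genotype and medium. Dppa2 is above 50 FPKM in 2i-14 p18, 2i-14 p39 and 2i-O48 alone, Dppa4 is highest in the 3 switched cultures, and Dppa1 is seen mainly in 2i-O48.

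Dppa5a (chr9:78214859-78215984, minus strand, mm9; protein coding, 3 exons, ENSMUSG00000060461.5) was the highest symbol in all 13 libraries once the small RNA loci were set aside. Line 2i-14 had 19057 FPKM at p18, 21555 at p39 and 32751 at p50. In TSa2i/L it was 18456, 23126 and 22694 in TSa2i-14 p22, p47 and p54, and 32728 and 18678 in TSa2i-C57 p9 and p58. Line 2i-O48 had 14937 and 2i-O48-TKO had 29833 FPKM, and the switched cultures had 34461 (2i-O48), 28163 (2i-O48-TKO) and 18928 FPKM (2i-14). High and low libraries stood in every medium, and all groups overlapped. Dppa5a alone made up 2.29% to 4.84% of the summed FPKM, and its narrowest lead over the next symbol was 2.04-fold, over the metallothionein gene Mt1 in TSa2i-C57 p58.

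A near-identical gene, Dppa5b (chr9:78093301-78094403, plus strand, 120455 bases from Dppa5a), had no entry under that symbol in the expression data. The coding sequences of both were therefore compared to show how far reads could be told apart. They are 357 bases each and differ at 9 positions, which gives 97.5% identity with a longest shared run of 158 bases. Bases 5 to 301, counted from the start codon of the mm9 annotation and written 5′ to 3′, hold all 9 differences, shown in capitals.
Dppa5a: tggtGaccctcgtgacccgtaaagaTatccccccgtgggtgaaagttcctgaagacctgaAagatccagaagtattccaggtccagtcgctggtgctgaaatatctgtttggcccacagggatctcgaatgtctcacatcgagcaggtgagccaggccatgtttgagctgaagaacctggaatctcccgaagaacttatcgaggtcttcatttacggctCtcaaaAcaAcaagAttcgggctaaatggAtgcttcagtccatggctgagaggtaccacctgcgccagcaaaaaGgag
Dppa5b: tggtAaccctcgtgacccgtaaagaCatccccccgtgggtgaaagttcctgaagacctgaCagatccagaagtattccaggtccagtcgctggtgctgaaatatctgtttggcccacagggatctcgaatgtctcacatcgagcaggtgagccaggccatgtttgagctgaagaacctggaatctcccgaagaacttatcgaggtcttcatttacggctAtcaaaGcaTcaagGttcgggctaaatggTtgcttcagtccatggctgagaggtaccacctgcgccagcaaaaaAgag

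Intronless stretches of the genome that match at least 80% of the Dppa5a coding sequence at 90% identity or more numbered 7, on 6 chromosomes, and the closest was 97.2% identical. The same search found 3 for Dppa2 (closest 99.3%), 2 for Dppa3 (closest 98.2%) and 0 for Dppa1 and Dppa4. How the authors' counting shared reads among such copies is not given in the sources used here, and the levels of Dppa5a, Dppa2 and Dppa3 are uncertain to that extent.

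In none of the comparisons did Dppa5a pass the test. The log2 difference of wild-type TSa2i/L libraries from those in 2i/L was -0.07 (SE 0.20, 95% interval -0.51 to 0.37, adjusted p = 0.875, limma, n = 5 and 3). After the switch it was 0.11 (SE 0.34, interval -0.70 to 0.92, adjusted p = 0.869), and the 3 pairs disagreed, with 0.578 of the starting level in 2i-14, 0.944 in 2i-O48-TKO and a 2.31-fold higher level in 2i-O48. Without line 2i-14 the change was 0.56 with an adjusted p of 0.0199, and without 2i-O48 it was -0.44, so the direction depended on which line was left out.

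The list held 5 relatives of DPPA5A with KH domains, of which Ooep and Khdc3, maternal factors of the egg's subcortical complex, were high enough to test, and 0 of 2 passed in any comparison. Ooep lies 7931 bases from Dppa5a on the same strand. The level of Ooep was lowest in 2i-O48 (239 FPKM) and highest in 2i-14 p50 (783 FPKM), and Dppa5a stood 34.1 to 62.6 times above it in every library. For Khdc3, 2i-O48 had 53.2 FPKM and 2i-O48-TKO had 32.6, with 5.01 and 11.1 FPKM after the switch. In 2i-14 the gene went the other way and was slightly higher after the switch than at p50. The adjusted p over the 3 pairs was 0.203 (limma).

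Dppa2 and Dppa4 (chr16:48310590-48319836 and chr16:48283848-48294405, both plus strand, mm9; ENSMUSG00000072419.4 and ENSMUSG00000058550.7, protein coding with 7 exons each) lie 16184 bases apart. Dppa2 was the only member that passed the test between wild-type TSa2i/L and 2i/L libraries. Its FPKM in 2i-14 was 53.2 at p18, 51.3 at p39 and 23.3 at p50. In TSa2i-14 it was 18.1, 9.34 and 14.3 at p22, p47 and p54, and in TSa2i-C57 13.4 and 18.8 at p9 and p58. These wild-type groups did not overlap, although 2i-14 p50 lay closer to the TSa2i/L libraries than to the earlier passages of its own line. Outside this comparison, 2i-O48-TKO in 2i/L had 15.3 FPKM, within the range of the TSa2i/L libraries, and 2i-O48 in 2i/L had 50.3 FPKM.

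The mean level of Dppa2 was 14.8 ± 3.83 FPKM (SD, n = 5) in TSa2i/L and 42.6 ± 16.7 FPKM (SD, n = 3) in 2i/L, a log2 difference of -1.41 (SE 0.29, 95% interval -2.06 to -0.77, adjusted p = 0.0166, limma), or 2.67-fold lower. Dppa2 was 1 of 4 members tested that passed, against 7.57% of all 10387 genes tested, and 1.85% of genes passed as lower. Groups without overlap, lower in TSa2i/L, were found for 4.72% of genes, Dppa2 and Dppa4 among them. The call for Dppa2 was lost in 4 of 18 alternatives, namely without 2i-14 p18 (-1.21, adjusted p = 0.0599), without 2i-14 p39 (-1.24, adjusted p = 0.0742), with no filter on low FPKM (-1.41, adjusted p = 0.0677) and without the 3 libraries rich in fibroblast RNA (-1.36, adjusted p = 0.124). It held with the mean of the fibroblast markers as a covariate (-1.47, adjusted p = 0.0135). In bulk libraries such as these, fewer cells that express a gene and less RNA per cell cannot be told apart.

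Dppa4 was even in 2i-14, with 83.8, 81.6 and 83.3 FPKM at p18, p39 and p50. It was 78.9, 44.5 and 63.8 FPKM in TSa2i-14 p22, p47 and p54, and 69.9 and 78.5 FPKM in TSa2i-C57 p9 and p58. All 5 TSa2i/L values lay below the 3 values in 2i/L, but the log2 difference of -0.33 (SE 0.19, interval -0.75 to 0.09) had an adjusted p of 0.345. The ratio of Dppa2 to Dppa4 in FPKM was 0.635, 0.628 and 0.280 in 2i-14 and 0.192 to 0.239 in the TSa2i/L libraries, where it varied little although both genes varied.

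After 5 passages in SF/a2i/L, Dppa2 was lower and Dppa4 higher in all 3 pairs, and neither passed the test. The controls of this comparison were the same lines in 2i/L, with 2i-14 p50 for the wild type, a library that also serves in the comparison of media. Dppa2 went from 23.3 to 21.8 FPKM in 2i-14, from 50.3 to 21.5 in 2i-O48 and from 15.3 to 10.4 in 2i-O48-TKO. The direction was shared by 29.4% of the 9759 genes tested, which were lower in all 3 pairs, and the log2 change was -0.60 (SE 0.26, interval -1.22 to 0.02, adjusted p = 0.204, limma with line as a block). With 2i-14 p39 or p18 as the wild-type control, the change was -0.97 (adjusted p = 0.0224) or -0.99 (adjusted p = 0.0290), so the call rests on which passage of 2i-14 is taken.

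Dppa4 went from 83.3 to 120 FPKM in 2i-14, from 69.9 to 101 in 2i-O48 and from 72.6 to 94.8 in 2i-O48-TKO. The groups did not overlap, with all 3 pairs 1.31-fold to 1.45-fold higher. The log2 change of 0.48 (SE 0.17, interval 0.08 to 0.88) did not pass (adjusted p = 0.139), and 19.4% of genes were higher in all 3 pairs and 11.5% without overlap. In this comparison 0 of 4 members passed, against 6.89% of all genes. The ratio of Dppa2 to Dppa4 went from 0.280 to 0.181 in 2i-14, from 0.720 to 0.212 in 2i-O48 and from 0.210 to 0.109 in 2i-O48-TKO.

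**Figure D2:**
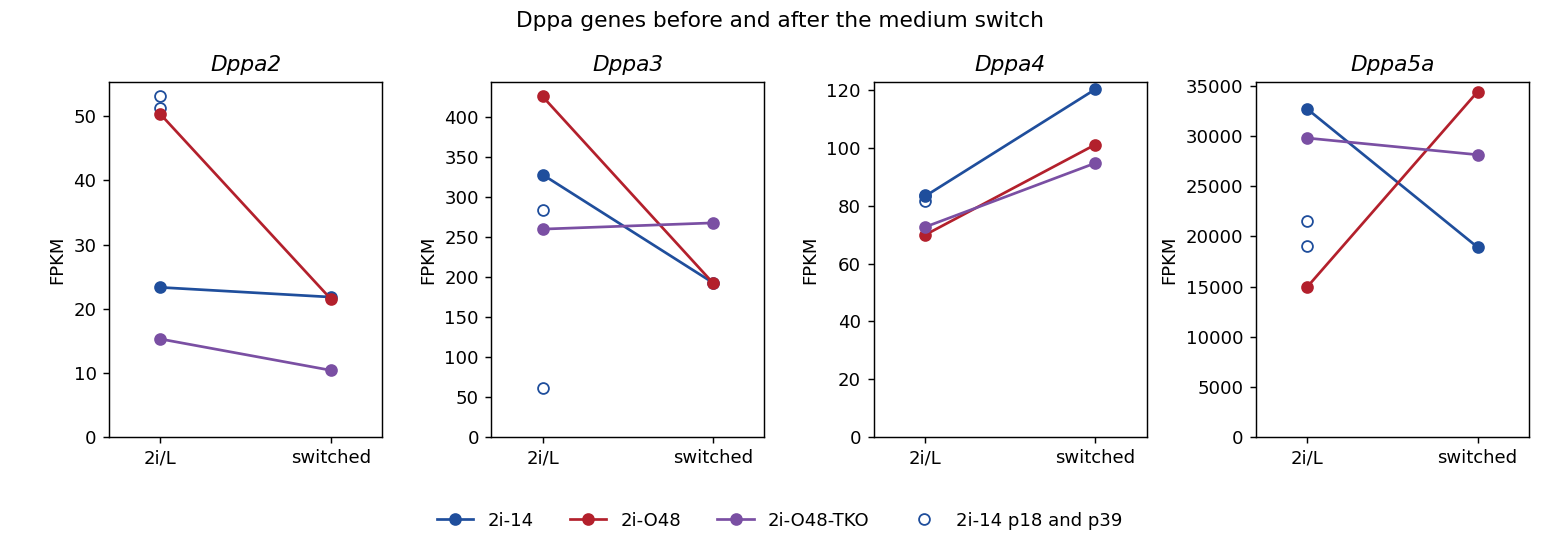
FPKM (linear axis from 0) of 4 Dppa genes in 2i/L and after 5 passages in SF/a2i/L, with a line for each of the 3 cell lines and open circles for the other passages of 2i-14. Dppa2 is lower and Dppa4 higher after the switch in every pair, and the lines for Dppa5a cross.

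The 3 switched cultures had the highest Dppa4 of the series, above all 10 other libraries. Since they share the SF/a2i/L medium with the long-term TSa2i/L libraries, the 2 sets were compared, a comparison chosen after the Dppa4 values were seen and one in which line, genotype and time in the medium all differ. Dppa4 was 106 ± 13.3 FPKM (SD, n = 3) in the switched cultures and 67.1 ± 14.2 FPKM (SD, n = 5) in TSa2i/L, a log2 difference of 0.67 (SE 0.20, interval 0.24 to 1.10, adjusted p = 0.0435, limma), where 14.6% of 10285 genes passed, 2.43% passed as higher and 4.65% were higher without overlap, as Dppa4 was. The call was lost in 6 of 12 alternatives, namely each one without a switched culture (adjusted p = 0.0760 to 0.124), without TSa2i-14 p47 (adjusted p = 0.0681), without TSa2i-14 p54 (adjusted p = 0.0842) and with no filter on low FPKM (adjusted p = 0.102). Dppa2 (0.23, interval -0.38 to 0.83), Dppa3 (0.12, interval -0.40 to 0.64) and Dppa5a (0.22, interval -0.22 to 0.67) did not pass.

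**Figure D3:**
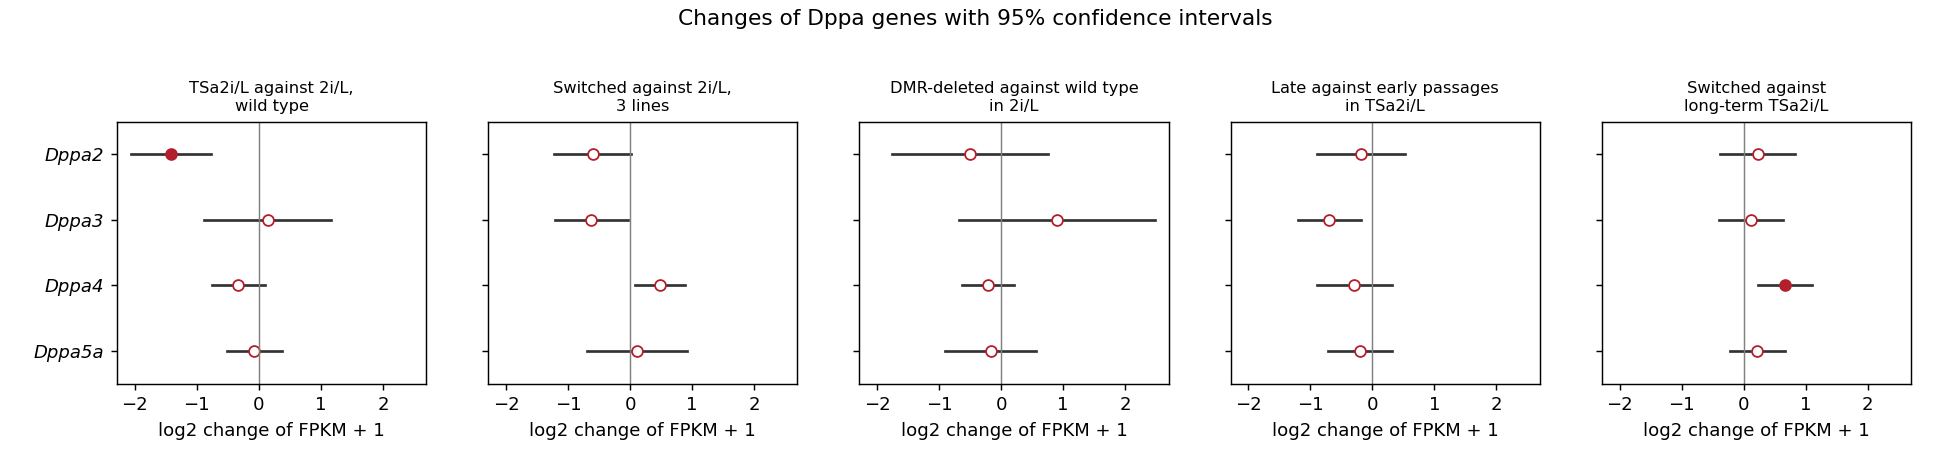
Log2 change of FPKM + 1 (points) with 95% confidence intervals (lines) for 4 Dppa genes in 5 comparisons. Filled points have an adjusted p under 0.05, namely Dppa2 at -1.41 between media and Dppa4 at 0.67 between switched and long-term cultures. The comparison of switched and long-term cultures was chosen after the Dppa4 values were seen, so its call for Dppa4 is not independent of that choice.

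Genes of the 2-cell embryo reported downstream of DPPA2 and DPPA4 were not ordered across libraries as Dppa2 was. Of 30 listed, 24 were present, and those at 1 FPKM or more numbered 18 in 2i-14 p18, 14 in 2i-14 p50 and 5 in 2i-O48-TKO, against 0 or 1 in each of the other 10 libraries. The summed level of 5 Zscan4 genes, which mark the 2-cell-like state of stem cells, reached 146 FPKM at p50 and 138 at p18 of 2i-14 and 36.9 FPKM in 2i-O48-TKO, and at most 1.32 FPKM elsewhere. Thus 2i-14 p39 and 2i-O48, with Dppa2 at 51.3 and 50.3 FPKM, had a Zscan4 sum of 1.32 and 0.422 FPKM, and 2i-O48-TKO had 36.9 with Dppa2 at 15.3. The libraries with a high sum were all in 2i/L. Every TSa2i/L and switched library had a Zscan4 sum of at most 0.341 FPKM, with Dppa2 at 21.8 FPKM or less. A relation of these genes to Dppa2 was not tested. Zscan4f alone was at 61.3, 0.679 and 44.5 FPKM in the 3 passages of 2i-14, in order. These genes are multicopy, and their reads may be split among copies.

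Only Gm5662 of that list reached 1 FPKM in enough libraries to be tested between the media, through 2i-14 p18, 2i-14 p50 and TSa2i-C57 p58. The other listed genes failed the filter by the number of libraries, whatever their level in 2i-14 p18 and p50. Gm5662 was lower in TSa2i/L (log2 difference -3.34, SE 0.83, adjusted p = 0.0342, limma), with 26.5, 0.899 and 45.2 FPKM in 2i-14 and 0 to 2.00 FPKM in TSa2i/L. After the switch its change was -3.02 (SE 0.72, adjusted p = 0.0603, limma). It reached the filter there only through the libraries in 2i/L, with 45.2, 2.15 and 2.92 FPKM in 2i-14 p50, 2i-O48 and 2i-O48-TKO. The switched cultures had 0, 0 and 0.0625 FPKM. A gene admitted in this way can only come out lower, so this p-value is not evidence of a fall. Of the 14 that reached the filter between DMR-deleted and wild-type lines, 0 passed. Several of them, Usp17la and Gm4340 among them, reached it only through 2i-14 p18 and p50 and could only come out lower in the deleted lines. This count therefore does not show whether these genes differ between the lines. Of the 4 present neighbours of Dppa2 and Dppa4 on chromosome 16, only Morc1 could be tested, and it did not pass in any comparison.

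**Figure D4:**
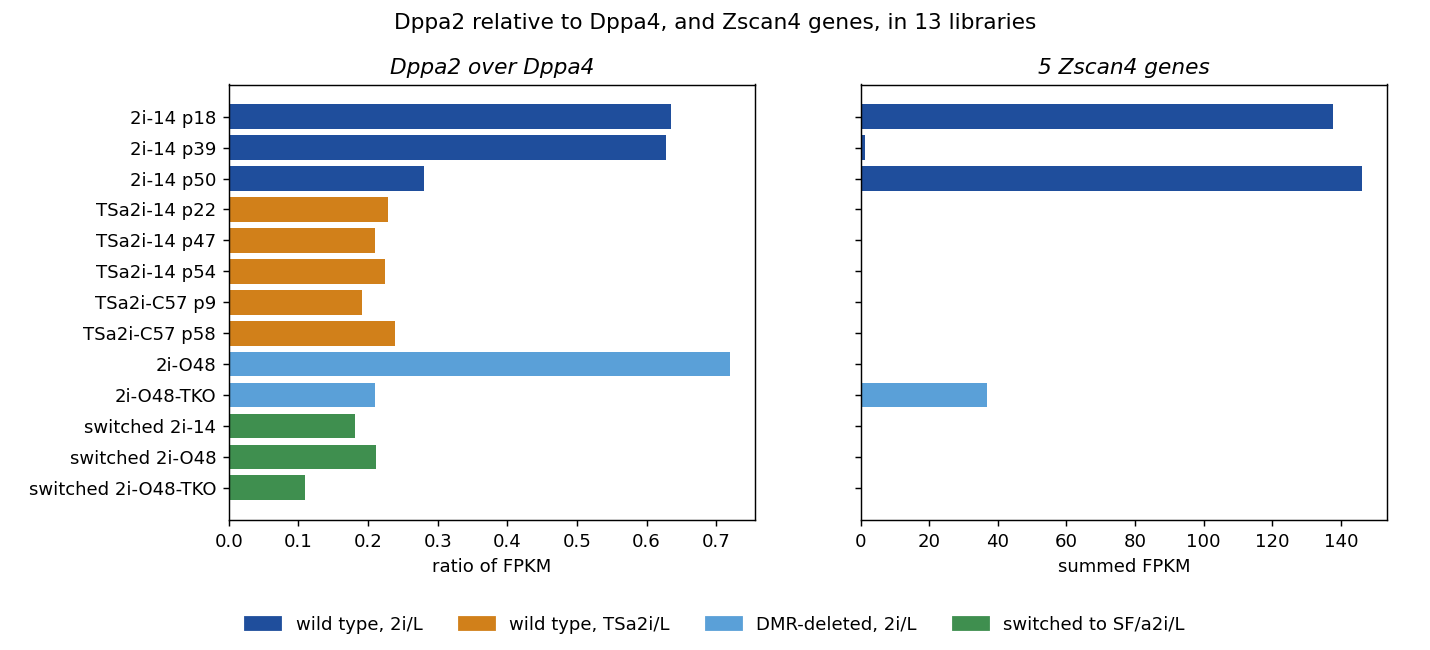
Ratio of Dppa2 to Dppa4 FPKM (left) and summed FPKM of 5 Zscan4 genes (right) in the 13 libraries, both on linear axes from 0 and coloured by genotype and medium. The ratio is above 0.6 in 2i-14 p18, 2i-14 p39 and 2i-O48, and the Zscan4 sum is above 30 FPKM in 2i-14 p18, 2i-14 p50 and 2i-O48-TKO, so that only 2i-14 p18 is high in both.

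Dppa3 (chr6:122576428-122580290, plus strand, mm9; ENSMUSG00000046323.2, protein coding, 4 exons) varied most in 2i/L. Line 2i-14 had 60.8 FPKM at p18, 283 at p39 and 328 at p50, 2i-O48 had 425 and 2i-O48-TKO had 259. In TSa2i/L it was 261, 186 and 187 in TSa2i-14 p22, p47 and p54, and 265 and 124 in TSa2i-C57 p9 and p58. The libraries 2i-14 p18 and 2i-O48 were the lowest and the highest of the series, and the groups overlapped. The log2 difference between media was 0.14 (SE 0.47, interval -0.88 to 1.17, adjusted p = 0.899), and without 2i-14 p18 it was -0.63 (adjusted p = 0.212).

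After the switch Dppa3 was at 192 FPKM in 2i-14, or 0.587 of the level before, at 192 FPKM (0.451) in 2i-O48 and at 267 FPKM (1.03) in 2i-O48-TKO, and the log2 change of -0.62 (SE 0.24, interval -1.21 to -0.03) had an adjusted p of 0.172. With 2i-14 p18 as the control it was 0.18 (adjusted p = 0.813). Within TSa2i/L, both early libraries (up to p30) were above all 3 late libraries, at 261 and 265 against 124, 186 and 187 FPKM. The log2 difference of late against early was -0.69 (SE 0.22, interval -1.20 to -0.18, adjusted p = 0.530). Of 10502 genes, 0 passed limma there, 928 had an unadjusted p under 0.05 and 9.72% were lower without overlap.

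Of 11 genes for partners of DPPA3 and the DNA methylation machinery, 10 could be tested in each comparison and 0 passed in any. Uhrf1 was at 38.7, 31.8 and 20.5 FPKM at p18, p39 and p50 of 2i-14, and at 24.9 to 46.5 FPKM in TSa2i/L. Its log2 difference between media was 0.03 (SE 0.25, interval -0.51 to 0.58, adjusted p = 0.962). In 2i-14, the passage with the least Dppa3 thus had the most Uhrf1, but the 3 libraries are too few for a relation to be tested. The switch pairs did not repeat that order. Uhrf1 was at 0.949 of its level before in 2i-14 (p50) and 0.947 in 2i-O48, where Dppa3 was at 0.587 and 0.451. In 2i-O48-TKO, Uhrf1 was at 0.761 and Dppa3 at 1.03 of the level before. These are RNA levels, and the displacement of UHRF1 by DPPA3 was not measured. The log2 change of Tet1, a 5-methylcytosine oxidase, was 0.75 after the switch (SE 0.24, adjusted p = 0.113).

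Of the 6 present neighbours of Dppa3 on chromosome 6, 4 could be tested. Apobec1, a cytidine deaminase gene 23965 bases away, was higher in TSa2i/L, at 7.49 to 12.9 FPKM, than in 2i-14, at 1.18 to 1.47 FPKM (log2 difference 2.06, SE 0.20, adjusted p = 0.000398). It rose after the switch, to 7.32, 8.15 and 8.87 FPKM (log2 change 1.63, SE 0.20, adjusted p = 0.0119). Nanog, a core pluripotency factor 77216 bases from Dppa3, fell after the switch, from 248 to 180 FPKM in 2i-14, from 467 to 195 in 2i-O48 and from 232 to 110 in 2i-O48-TKO (log2 change -0.93, SE 0.20, adjusted p = 0.0483), a call lost after median centring (-0.76, adjusted p = 0.0588). Gdf3, a TGF-beta family ligand 16322 bases away, did not pass in these comparisons and was lower in switched than in long-term TSa2i/L cultures (log2 difference -0.69, SE 0.20, adjusted p = 0.0422), a call lost after median centring (-0.43, adjusted p = 0.159) and after quantile normalization (-0.61, adjusted p = 0.0581). Dppa3 itself passed in none of the comparisons.

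Among 19 core pluripotency genes, Prdm14 and Sall4 were lower in TSa2i/L, as Dppa2 was. Prdm14, a repressor of DNA methyltransferase genes, differed by -0.97 (SE 0.22, adjusted p = 0.0238), and Sall4, a zinc-finger factor, by -0.93 (SE 0.19, adjusted p = 0.0148), against 1.85% of all genes lower. After the switch, Prdm14 (-1.39, SE 0.21, adjusted p = 0.0203) and Nanog were lower among 18 tested, against 4.66% of all genes. Between switched and long-term cultures, Pou5f1, Tbx3 and Tdh were lower among 19 tested, with log2 differences of -0.86 (adjusted p = 0.0305), -0.90 (adjusted p = 0.0192) and -0.76 (adjusted p = 0.0467), and 12.2% of all genes were called lower there. None of these 3 calls held after median centring (adjusted p = 0.0737, 0.0580 and 0.144) or quantile normalization (adjusted p = 0.0543, 0.0512 and 0.0519).

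Dppa1 (chr11:46421274-46442763, minus strand, mm9; ENSMUSG00000064010.6, protein coding, 7 exons) reached 7.84 FPKM in line 2i-O48, and 2i-O48-TKO had 0.255 FPKM. In 2i-14 p39 and p50 and in TSa2i-C57 p58 it was at 0.0585, 0.0711 and 0.0602 FPKM, each under the value that 3 fragments would give in that library. The remaining 8 libraries, all 3 switched cultures among them, listed it at 0. From the estimated depth, the levels in 2i-O48 and 2i-O48-TKO correspond to about 247 and 7.40 fragments (counting error only), so that both lines with DMR deletions in 2i/L stood above the 3-fragment level and no other library did. Whether this goes with the deletions or with the O48 lines cannot be told apart. Dppa1 did not reach the filter of any comparison, and an exact two-sided permutation test of wild-type TSa2i/L against 2i/L gave p = 0.393 (unadjusted; the smallest p that 5 against 3 libraries allow is 0.0357). After the values were seen, symbols at 5 FPKM or more in 2i-O48 and under 1 FPKM in the other 12 libraries were counted. There were 2, Dppa1 and Otor (11.1 FPKM there, 0.982 for 2i-O48-TKO), and this count in the other libraries was 0 to 17.

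Between DMR-deleted and wild-type libraries in 2i/L, 0 of 4 members passed, against 0.118% of 10164 genes. The log2 differences were -0.50 for Dppa2 (interval -1.76 to 0.75), 0.89 for Dppa3 (interval -0.69 to 2.47), -0.21 for Dppa4 (interval -0.63 to 0.20) and -0.17 for Dppa5a (interval -0.91 to 0.57). The 2 deleted lines differed from each other more than the groups did for Dppa2, with 50.3 FPKM for 2i-O48 and 15.3 for 2i-O48-TKO. Dppa4 was at 69.9 and 72.6 FPKM in these lines, below all 3 values of 2i-14, as 7.74% of genes were. Late and early TSa2i/L libraries differed by -0.18 for Dppa2 (interval -0.90 to 0.53), -0.29 for Dppa4 (interval -0.89 to 0.31) and -0.20 for Dppa5a (interval -0.72 to 0.32).

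The genes whose log2(FPKM + 1) was most like each member over the 13 libraries, among 10730 others, were given by Pearson's r as a description. The 13 libraries include passages of the same line and share media, and the part of line and medium in these values was not tested. For Dppa2 they were B3galt4 (0.93), Zfp936 (0.91), Znhit1 (0.91), Dnajb6 (0.91) and Rexo2 (0.90), and for Dppa4 Pbdc1 (0.91), Haus3 (0.90), Zfp97 (0.88) and Zfp472 (0.88). For Dppa3 they were Ube2a (0.84), Gm2694 (0.80), Akap11 (0.79), Nudt21 (0.78) and Gtf3a (0.75). For Dppa5a they were Pfdn1 (0.93), Sod1 (0.93), Tmem50a (0.91), Mrps36 (0.90) and its neighbour Ooep (0.89). Members were less like each other, from -0.48 for Dppa2 with Dppa5a to 0.29 for Dppa2 with Dppa4.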

How the data were processed

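Of 41 samples, the 13 RNA-seq libraries were analysed. Per the labels and the study's methods, the authors aligned reads to mm9 with TopHat2 (version 2.0.11 in the submitters' processing notes) and computed FPKM with Cufflinks (2.2.1), and deposited FPKM per gene, 24525 rows per library. The gene annotation is not given in the sources used here. Rows of a repeated symbol were summed, which applied to no Dppa gene. The Dppa genes and the gene lists were chosen with earlier results of these data known.

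FPKM were tested as log2(FPKM + 1) with limma 3.58.1 (R 4.3.3) with an intensity trend and Benjamini-Hochberg adjustment over all genes tested, at 0.05. Tested genes had 1 FPKM or more in at least 3 libraries, or 2 for the DMR deletions and the passages. A fold on this scale understates the change of low genes. Line was a block in the comparison of switched cultures, since the titles name the same line before and after. Deviations from the group means correlated within lines by 0.17 for 2i-14, -0.14 for 2i-O48 and 0.36 for 2i-O48-TKO. Early and late passages were divided at p30. Genes named beyond the members were those of the lists that passed in a comparison discussed and the 5 most like each member, of which 1 for Dppa4 is not reported here. Uhrf1, Tet1, Khdc3, Ooep, Morc1, Zscan4f and Otor were named after their values were seen. In simulated data with a log2 change of 2, limma recovered 98% of changed genes for the media, 70% for the switch, 69.5% for the DMR deletions, 83% for the passages and 90% for switched against long-term cultures. The simulated spread came from the first-named group of each comparison alone, shuffled over genes, without line effects. All changes of the members were smaller than 2, so these rates do not give the power to find them. Depth was estimated from low FPKM values of 3700 genes. Coding sequences of the vM1 annotation were searched in mm9 with blastn 2.17.0. Alternatives were another pseudocount (0.1), other filters, scalings and controls, a fibroblast covariate and leaving out libraries or lines.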

Additional observations from a re-analysis of the deposited data

Results flagged for a closer look

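Within the wild-type TSa2i/L group, Dppa1 in TSa2i-C57 p58 stood apart. At 0.0602 FPKM, or about 1.44 fragments at the estimated depth, it was the only value above 0 among 5 libraries, so that its gap to the nearest library was 1.00 of the whole range. That level is under the 0.125 FPKM that 3 fragments would give in this library. With the other 4 libraries at 0, any single value above 0 gives this gap, so the mark says only that the gene was listed above 0 in 1 library. The other 4 members did not stand apart in this way.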

How the results depend on the processing

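Of the members' log2 changes under all alternatives, 226 neither reversed nor changed side of the threshold, 10 lost the call, 3 gained it and 13 reversed. Changes of Dppa5a set to 0 by quantile normalization are counted among the 226. The cause was not tested for any. The lost and gained calls are given above. Reversed values were Dppa3 between media without 2i-14 p18 (-0.63), after the switch with 2i-14 p18 as control (0.18), and between switched and long-term cultures without switched 2i-O48-TKO (-0.037) or TSa2i-C57 p58 (-0.045). Dppa5a reversed between media without TSa2i-14 p22 (0.00097) or 2i-14 p50 (0.16), after the switch without 2i-O48 (-0.44), for the DMR deletions without 2i-O48 (0.33) or 2i-14 p50 (0.059), and for late passages without TSa2i-C57 p9 (0.21). Dppa2 reversed for the DMR deletions without 2i-O48-TKO (0.32) and for late passages without TSa2i-14 p47 (0.067) or p22 (0.019). With 1 library or line left out, the ranges of these changes were -0.63 to 0.58 (Dppa3) and -0.23 to 0.16 (Dppa5a) between media, -0.44 to 0.56 (Dppa5a) after the switch, -1.33 to 0.32 (Dppa2) and -0.67 to 0.33 (Dppa5a) for the DMR deletions, -0.40 to 0.067 (Dppa2) and -0.61 to 0.21 (Dppa5a) for late passages and -0.045 to 0.23 (Dppa3) between switched and long-term cultures. Genes called between media (786) numbered 374 without a filter, 458 at a mean of at least 5 FPKM, 468 with TSa2i-14 only, 137 without the libraries rich in fibroblast RNA and 299 to 846 with 1 library left out. After the switch (672) they numbered 0 without a filter (lowest adjusted p 0.143, limma), 369 at a mean of at least 5 FPKM, 1522 and 1483 with 2i-14 p39 and p18 as control and 94 to 1337 with 1 line left out. Without the replicate block they numbered 778, of which 567 were shared, and the block changed no member's call. For the DMR deletions (12) they numbered 0 without a filter and 1 to 20 with 1 library left out, and for late passages (0) 0 to 8. Between switched and long-term cultures (1504) they numbered 628 without a filter, 923 after quantile normalization and 551 to 2188 with 1 library left out. Median centring shifted log2 values by -0.12 between media, by 0.17 after the switch and by 0.26 between switched and long-term cultures. Genes called higher were 594 of 786 between media and 359 of 639 after centring (365 of 655 after quantile normalization), 217 of 672 after the switch and 386 of 700 (300 of 662), and 250 of 1504 and 681 of 1130 (407 of 923) between switched and long-term cultures. Quantile normalization sets every change of Dppa5a to 0, since it ranks first in each library. Outside 2i-O48, Dppa1 stood at about 7.40 fragments or fewer at the estimated depth, so its levels there are imprecise.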
